A study of Homo sapiens with 4 samples.

Results

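The suprabasal differentiation keratins are 8 keratin genes, KRT1, KRT10, KRT2, KRT9, KRT77, KRT78, KRT80 and KRT23, chosen by symbol from a list. Each matched 1 row among 44591 genes, of which 19233 are protein-coding. RNA-seq was performed on 4 replicates of untreated HaCaT, a spontaneously immortalized line of human epidermal keratinocytes, as 1 group with no comparison group. All 4 came from the parental line without a transgene or agent named, in Dulbecco's modified Eagle medium with 12% fetal bovine serum by the sample labels and 10% by the study's methods. HaCaT in culture is 1 line, which limits it as a model of the layered epidermis, and neither the density nor the age of the cultures at harvest is given in the sources used here.

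Keratins are the intermediate filament proteins of epithelia, and each filament is built from pairs of 1 type I and 1 type II chain. Basal keratinocytes make KRT5 and KRT14. When a cell leaves the basal layer it turns to KRT1 and KRT10, the pair of the spinous layer, and later to KRT2 in the upper layers, while KRT9 is the type I chain of the palms and soles that pairs with KRT1. KRT77 is a type II chain close in sequence to KRT1 and known from sweat gland ducts. KRT78 and KRT80 are type II chains of stratified epithelia, KRT80 lying near desmosomes, and KRT23 is a type I chain known from simple and tumour epithelia. In culture, KRT1 and KRT10, and later KRT2, mark how far keratinocytes have moved from the proliferating basal state. The 3 type I genes lie on chromosome 17 and the 5 type II genes on chromosome 12, all on the minus strand.

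The letters before the start site are shown for the 3 members that the RefSeq promoter table (GRCh38.p14) lists, since they stand for 3 different levels in these cells: KRT10 was high, KRT9 low but steady, and KRT2 at or near 0. Each line gives 100 bases of the gene's strand, ending 1 base before the start, with TATAA in capitals.
KRT10 (chr17:40822615-40822714): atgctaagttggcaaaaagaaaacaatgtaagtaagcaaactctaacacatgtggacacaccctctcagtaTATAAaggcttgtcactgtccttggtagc
KRT9 (chr17:41572060-41572159): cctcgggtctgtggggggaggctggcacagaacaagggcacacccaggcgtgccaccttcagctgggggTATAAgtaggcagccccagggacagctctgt
KRT2 (chr12:52652212-52652311): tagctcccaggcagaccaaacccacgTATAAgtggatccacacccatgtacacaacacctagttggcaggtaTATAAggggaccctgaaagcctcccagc
All 3 held TATAA, searched on both strands, against 9.0% of 35116 promoters in the same window. The match nearest the start began 29 bases upstream in KRT10, 31 in KRT9 and 28 in KRT2, which held a second one. TGANTCA, the letters bound by AP-1 factors, was found in 0 of the 3 within 250 bases, against 6.57% of all promoters. The 3 genes share the TATAA letters while their transcript levels differed widely, and a match is a description of the sequence and not a site.

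The libraries differed in depth and in make-up, and replicate 1 stood apart. Replicate 1 held 73082279 counts and the others 17056035 to 19745170, and protein-coding genes took 76.1% of the counts against 95.3% to 96.4%. Levels are therefore given as TPM over protein-coding genes, that is counts divided by gene length and scaled to the same fixed total over these genes in each library. The 8 keratinocyte markers chosen (KRT5, KRT14, TP63, ITGA6, ITGB4, COL17A1, DSG3 and DSC3) were at 1 TPM or more in all 4 replicates. In bulk RNA, fewer cells that express a gene and less RNA per cell cannot be told apart. Nothing in the labels says that the replicates were separate cultures, while the study calls them biological repeats. Member levels below are thus given per replicate, as TPM or counts. For KRT1, KRT10, KRT80, KRT9, KRT77 and KRT23 the mean is also given without replicate 1.

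Of the 8 keratins, 4 had a mean of at least 1 TPM (KRT80, KRT10, KRT1 and KRT9), against 63.3% of all protein-coding genes. Only 3 of them, KRT80, KRT10 and KRT9, reached 1 TPM in every replicate, against 56.7% of protein-coding genes. Without replicate 1 the mean of KRT1 fell under this limit, and 3 of 8 remained, against 62.8% of protein-coding genes. KRT77 lay just under the limit at a mean of 0.983, and passed it, making 5 of 8, when replicate 2, 3 or 4 was left out. The suprabasal keratins were thus a mixed set in these cells, with 3 genes present throughout, 3 seen mainly in replicate 1 and 2 near the limit of detection.

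**Figure D1:**
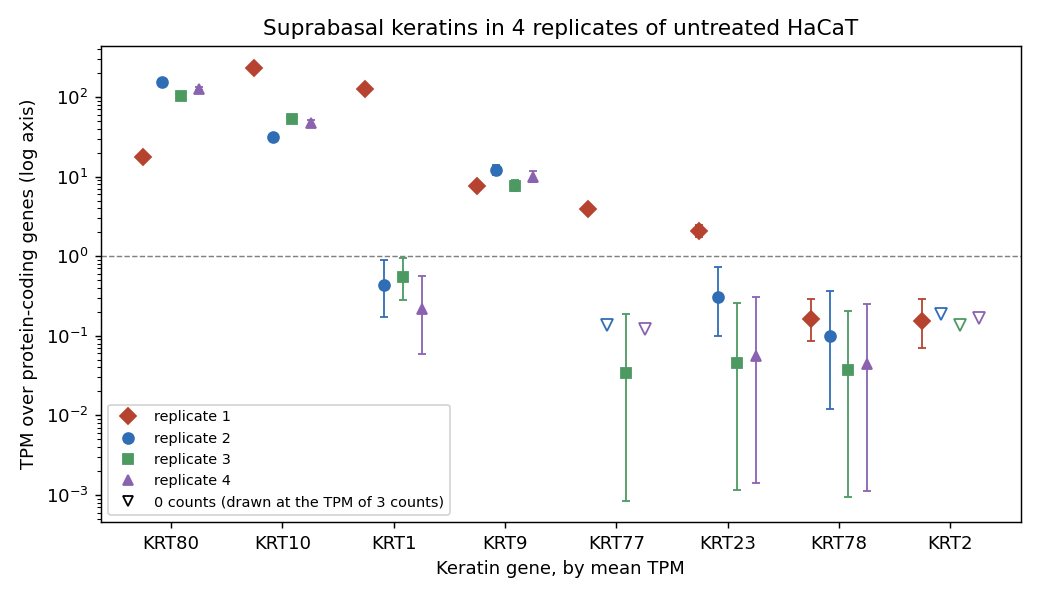
TPM over protein-coding genes (log axis) of the 8 keratins in each of 4 replicates, ordered by mean TPM. Bars are 95% exact Poisson intervals of the count, open triangles stand for 0 counts and are drawn at the TPM of 3 counts, and the dashed line is 1 TPM. KRT9 keeps nearly 1 level, KRT1 falls from 124 in replicate 1 to between 0.219 and 0.545, and KRT80 is the gene that is lowest in replicate 1 by a wide gap.

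KRT10, the type I chain of the spinous pair (chromosome 17, 38974369 to 38978863, hg19), had a TPM of 229, 31.3, 52.4 and 47.4 in replicates 1 to 4. All 4 libraries held the transcript, and replicate 1 was far above the other three. The mean was 90.1 ± 93.2 (SD, n = 4), and 43.7 ± 11.0 (SD, n = 3) over replicates 2 to 4. Replicate 1 was 7.31 times replicate 2 (95% Clopper-Pearson interval 6.65 to 8.06), 4.38 times replicate 3 (4.11 to 4.67) and 4.84 times replicate 4 (4.50 to 5.22). These intervals, like the others given here, hold the error of counting alone, because PCR copies of 1 molecule cannot be recognised in these reads. Replicate 2 was also below replicates 3 and 4 by more than counting error, its Poisson interval of 28.5 to 34.4 lying under 49.2 to 55.7 and 44.0 to 50.9.

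The size of the KRT10 excess depended on how the libraries were scaled. In TPM over all genes, in which the other RNA classes of replicate 1 take part of the total, KRT10 was 71.0, 27.8, 45.8 and 44.0 in replicates 1 to 4. Replicate 1 was still the highest, but by a much smaller margin. This scaling moved the median of 12165 protein-coding genes with a mean of at least 1 TPM by -1.31 on the log2 scale in replicate 1, while KRT10 was still 0.68 above the median of the other replicates on that scale. TMEM99, a gene on the opposite strand, overlaps KRT10 (38975344 to 38978863) and had 1477, 113, 204 and 168 counts. The sources used here do not say whether the counting used strand, and without it reads of the pair cannot be told apart. TMEM99 had fewer counts than KRT10 (11921, 446, 1007 and 755) in each replicate.

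KRT1, the type II partner of KRT10 (chromosome 12, 53068520 to 53074191), was the member that varied most. It had 7396 counts in replicate 1 and 7, 12 and 4 counts in replicates 2 to 4, which is a TPM of 124, 0.430, 0.545 and 0.219. Among protein-coding genes with a mean of at least 1 TPM it took percentile 89.8 in replicate 1, whereas replicates 2 to 4 placed it between percentiles 0.444 and 1.92. KRT1 is in this set through replicate 1 alone, so its low percentiles in the others are in part set by the limit. The mean of 31.3 ± 61.9 (SD, n = 4) describes no single library, and over replicates 2 to 4 it was 0.398 ± 0.165 (SD, n = 3). Replicate 1 was 289 times replicate 2 (140 to 719), 228 times replicate 3 (130 to 441) and 567 times replicate 4 (221 to 2081). Scaled over all genes, the TPM of KRT1 was 38.4, 0.381, 0.476 and 0.204, so the same order held. The Poisson intervals of replicates 2, 3 and 4 overlapped one another.

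The KRT10 to KRT1 ratio, read within a library and thus free of the scaling, shows how far the pair was from equal amounts. Per kilobase, reads of KRT10 were 1.85 times those of KRT1 in replicate 1, with a 95% Clopper-Pearson interval of 1.79 to 1.90. It was 73.0 in replicate 2 (35.1 to 183), 96.1 in replicate 3 (54.8 to 187) and 216 in replicate 4 (84.1 to 795). KRT10 exceeded KRT1 in 4 of 4 libraries, and the interval of replicate 1 lay apart from the other three, which overlapped. The mean log2 ratio was 5.35 ± 3.05 (SD, n = 4; exact permutation test by flipping signs, two-sided, p = 0.125, which is as low as 4 replicates allow). In replicates 2 to 4 the transcript of the type I chain was thus present with almost none of its type II partner.

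**Figure D2:**
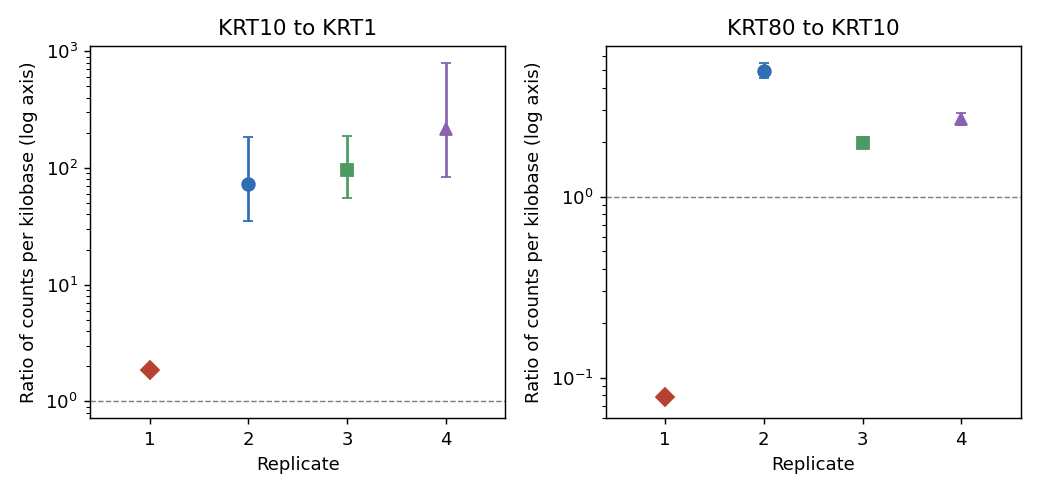
Ratio of counts per kilobase (log axis) of KRT10 to KRT1 and of KRT80 to KRT10 in each replicate, with 95% Clopper-Pearson intervals, the dashed line marking equal reads. KRT10 to KRT1 is 1.85 in replicate 1 and at least 73.0 in the others, while KRT80 to KRT10 lies under 1 in replicate 1 only.

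The basal pair gave a scale for both genes. KRT1 reached 2.30% of KRT5 per kilobase in replicate 1, and 0.0161%, 0.0284% and 0.00730% in replicates 2 to 4. KRT10 reached 3.36% of KRT14 in replicate 1, and 0.410%, 0.800% and 0.743% in the others. Even in replicate 1, where both spinous keratins were highest, the basal chains exceeded them by 43.5 times for KRT5 over KRT1 and 29.8 times for KRT14 over KRT10. The spinous pair was a minor part of the keratin RNA in every library.

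KRT80 (chromosome 12, 52562780 to 52585784), the type II chain found near desmosomes, ran the other way. Replicates 1 to 4 gave a TPM of 17.8, 156, 104 and 127. The other three replicates were 5.83 to 8.73 times above replicate 1, which did not overlap with them. The mean was 101 ± 59.5 (SD, n = 4), and 129 ± 25.8 (SD, n = 3) over replicates 2 to 4, where KRT80 was the highest of the 8 keratins in 3 of 3 libraries and stood at percentiles 86.6 to 91.4 of the detected genes. Per kilobase it had 4.96 times the reads of KRT10 in replicate 2 (4.50 to 5.49), 1.99 times in replicate 3 (1.85 to 2.13) and 2.69 times in replicate 4 (2.49 to 2.91), but only 0.0778 times in replicate 1 (0.0739 to 0.0818). The order of the leading 2 members was therefore reversed in replicate 1. With all genes in the total, the TPM of KRT80 was 5.52, 138, 91.0 and 118.

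KRT9 (chromosome 17, 39722093 to 39728310), the keratin of palm and sole skin, was the steadiest of the 4 members with a mean of at least 1 TPM. It had 421, 185, 158 and 170 counts and a TPM of 7.57, 12.2, 7.68 and 9.96 in replicates 1 to 4. The mean was 9.34 ± 2.18 (SD, n = 4), and 9.93 ± 2.24 (SD, n = 3) over replicates 2 to 4. Over all 4 replicates the SD of log2(TPM + 1) was 0.30, against 3.25 for KRT1, 1.24 for KRT10 and 1.40 for KRT80. Replicate 1 and replicate 3 differed by less than counting error (0.986 times, 0.819 to 1.19), while replicate 1 was 0.623 times replicate 2 (0.523 to 0.744) and 0.759 times replicate 4 (0.634 to 0.913). KRT9 thus did not go up in the library in which KRT1, the chain it pairs with in skin, was high. Per kilobase it had 0.0609 times the reads of KRT1 in replicate 1, but 28.3, 14.1 and 45.5 times in replicates 2, 3 and 4. In TPM over all genes it was 2.34, 10.8, 6.71 and 9.26, so that replicate 1 was clearly the lowest under this scaling. KRT9 lies 10.2 kb from KRT14, which had 629 to 902 times its reads per kilobase. In the transcripts of GENCODE release 29, 0 of 2283 distinct stretches of 50 bases of KRT9 occurred in another gene. The same held for KRT1, KRT10, KRT2, KRT77, KRT78 and KRT23, and for KRT80 it was 0.364% of 4392, shared with KRT8 and a KRT8 pseudogene.

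KRT77 (chromosome 12, 53083410 to 53097247), the gene next to KRT1, followed the pattern of KRT1 at a lower level. It had 313 counts and a TPM of 3.90 in replicate 1, and 0, 1 and 0 counts in replicates 2 to 4. The lower 95% limit of the ratio of replicate 1 to replicate 2 was 23.1, and that to replicate 4 was 25.9. Replicate 1 was 116 times replicate 3 (20.6 to 4587), a ratio that rests on 1 count. KRT1 exceeded it 31.9 times per kilobase in replicate 1 (28.5 to 35.8). The other sweat gland markers chosen, AQP5, SCGB2A2 and DCD, had 0 counts in all 4 replicates.

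KRT2 (chromosome 12, 53038342 to 53045959), the keratin of the upper epidermal layers and the neighbour of KRT1 on the other side, had 9 counts in replicate 1 and 0 in replicates 2, 3 and 4. That is a TPM of 0.153 in replicate 1, while 3 counts would be 0.187, 0.138 and 0.167 in the others. A difference between the replicates was not detectable at this depth. KRT78 (chromosome 12, 53231588 to 53242778) had 12, 2, 1 and 1 counts, or a TPM of 0.165, 0.10, 0.0371 and 0.0447, with Poisson intervals that all overlapped. Both genes were at or near the limit of detection in these cells.

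KRT23 (chromosome 17, 39078948 to 39093895) had 122 counts in replicate 1 and 5, 1 and 1 in the others. Its TPM of 2.07 in replicate 1 was 6.68 times replicate 2 (2.78 to 20.9), 45.1 times replicate 3 (7.95 to 1797) and 37.4 times replicate 4 (6.59 to 1489), the last pair resting on 1 count each. The TPM over all genes was 0.640, 0.275, 0.0401 and 0.0514. An antisense gene spans KRT23 and had 43, 0, 1 and 0 counts, which without strand cannot be told apart from it.

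On chromosome 12 the keratin genes stand side by side, and the cluster was read gene by gene to see where the changes of KRT1 and KRT77 lay. KRT2, KRT1 and KRT77 are next to each other, with 22.6 kb between KRT2 and KRT1 and 9.22 kb between KRT1 and KRT77. The 2 neighbours KRT1 and KRT77 were both over 4 times higher in replicate 1 than in any other library, while KRT2 stayed near 0. KRT76, the next gene after KRT77, had 30, 3, 0 and 0 counts. Farther along, KRT4, a keratin of mucosa, had a TPM of 2359, 123, 29.2 and 61.0, whereas KRT80 at one end of the cluster and KRT8 and KRT18 at the other were lowest in replicate 1. The higher levels in replicate 1 were thus not a property of the whole cluster.

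**Figure D3:**
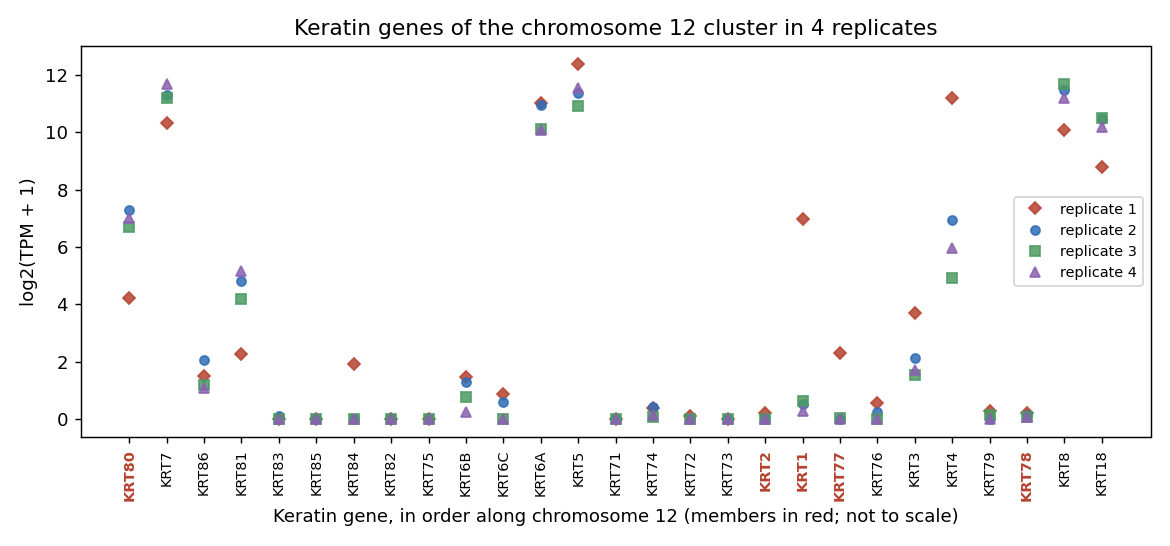
log2(TPM + 1) of the 27 keratin genes of chromosome 12 in their order along the chromosome (equal steps, not to scale), 1 symbol per replicate, members named in red. KRT1, KRT77 and KRT4 are highest in replicate 1, while KRT80, KRT7, KRT81, KRT8 and KRT18 are lowest there.

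Replicate 1 was more than 4 times the highest other replicate for KRT1, KRT10, KRT77 and KRT23, that is 4 of 8, against 2.83% of 15022 protein-coding genes with more than 3 counts in any replicate. KRT77, KRT2 and KRT78 passed this filter on counts through replicate 1 alone, the deepest library, so these counts are a description. Replicate 1 was more than 4 times below the lowest other replicate for KRT80, 1 of 8, against 7.82% of these genes. In TPM over all genes the first count was 2 of 8, KRT1 and KRT77, against 1.06% of genes, and the second was again KRT80 alone, against 25.7%. With size factors KRT10 just missed the limit, and KRT1, KRT77 and KRT23 passed it, 3 of 8, against 3.04% of genes. KRT80 alone was over 4 times lower with size factors, against 8.27%. On the scale of log2(TPM + 1), which understates the change of low genes, replicate 1 minus the median of the others was 6.45 for KRT1, 2.25 for KRT10, 2.29 for KRT77, 1.54 for KRT23 and -2.77 for KRT80. No p is given, since replicate 1 is 1 library.

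**Figure D4:**
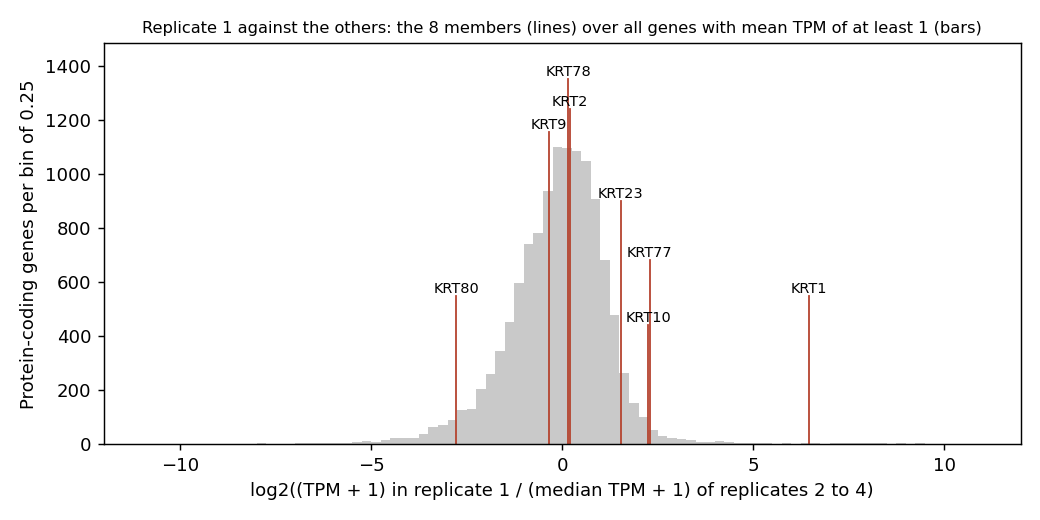
Difference of log2(TPM + 1) between replicate 1 and the median of replicates 2 to 4. Bars count protein-coding genes with a mean of at least 1 TPM, lines mark the 8 keratins (their height only separates the names). KRT1 at 6.45 lies far to the right of the bulk of genes, KRT10 and KRT77 near 2.3 lie in its right tail, KRT80 at -2.77 lies in its left tail, and KRT9, KRT2 and KRT78 lie in the middle.

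The 3 type I members summed to a TPM of 239, 43.8, 60.1 and 57.4 in replicates 1 to 4, and the 5 type II members to 146, 156, 105 and 128. KRT10 took 59.5% and KRT1 32.2% of the sum in replicate 1, where KRT80 took 4.63%. In replicates 2 to 4, KRT80 took 63.2% to 77.8%, KRT10 15.7% to 31.8% and KRT1 0.118% to 0.331%. The type I members exceeded the type II members 1.63 times in replicate 1, while the type II members exceeded the type I members 3.56, 1.74 and 2.23 times in replicates 2 to 4. As a share of all keratin TPM the 8 genes were nearly constant, at 0.743%, 0.719%, 0.747% and 0.725%, a mean of 0.733% ± 0.0134 (SD, n = 4). This held for TPM only, as their share of keratin read counts was lower in replicate 1 than in each of the others. All 55 keratin genes together took 5.18% of the TPM in replicate 1 and 2.21% to 2.78% in the others.

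**Figure D5:**
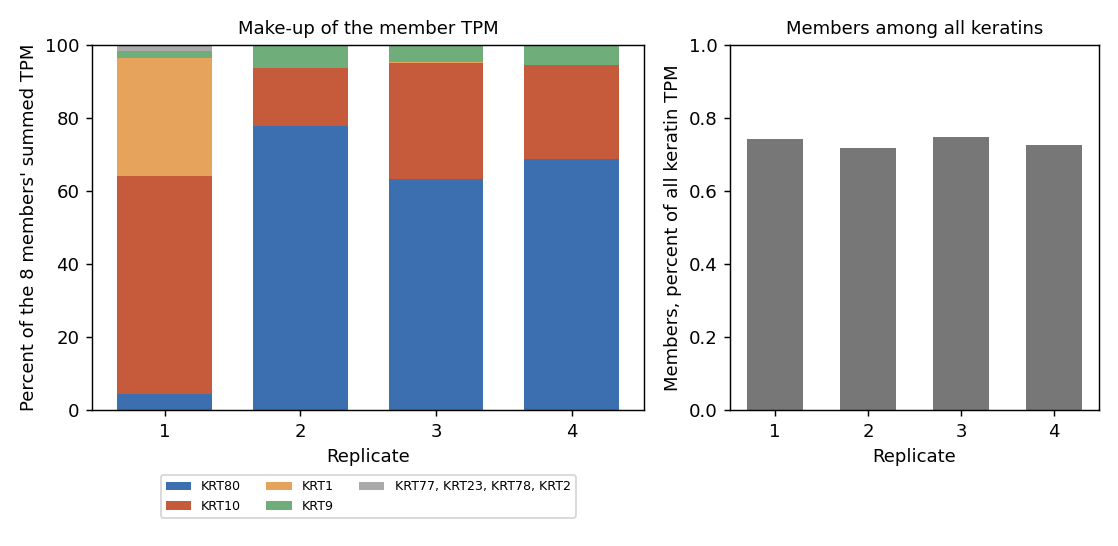
Left, the percent of the summed TPM of the 8 members held by each in the 4 replicates; right, the members' summed TPM as a percent of the TPM of all 55 keratin genes. KRT80 (63.2% to 77.8%) leads in replicates 2 to 4 and KRT10 with KRT1 in replicate 1, while the share of the members among keratins stays between 0.719% and 0.747%.

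By mean TPM the order of the members was KRT80, KRT10, KRT1, KRT9, KRT77, KRT23, KRT78 and KRT2. Neighbours in this order were compared within each replicate on the log2(TPM + 1) scale, 7 pairs in all. KRT10 exceeded KRT1 by 3.95 ± 2.08 (SD, n = 4), and KRT9 exceeded KRT77 by 2.76 ± 1.33 (SD, n = 4), each in 4 of 4 replicates (exact sign-flip permutation test, p = 0.125, Benjamini-Hochberg adjusted p = 0.219). With 4 replicates this test cannot reach 0.05, and for KRT9 and KRT77 the ranges of TPM over replicates did not overlap. KRT80 and KRT10 differed by 0.26 ± 2.64 (SD, n = 4; exact p = 0.875), less than the spread between replicates. KRT1 was below KRT9 by this measure (-1.25 ± 3.43, SD, n = 4; exact p = 0.625) although its mean TPM was higher, since it exceeded KRT9 in replicate 1 only. KRT77 and KRT23 differed by 0.05 ± 0.45 (SD, n = 4; exact p = 1). KRT23 exceeded KRT78 by 0.42 ± 0.66 and KRT78 exceeded KRT2 by 0.07 ± 0.05 (SD, n = 4; exact p = 0.125 for both), each in 4 of 4 replicates but from a few counts. By the median of the 4 replicates KRT9, at 8.82, stood above KRT1, at 0.487.

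Other genes of the spinous and granular layers were read beside the keratins. Their lists were chosen with earlier results of these data known, so the counts below are a description. Of 8 spinous genes, 4 were over 4 times higher in replicate 1 (DSG1, DSC1, IVL and CALML5) against 2.83% of all genes with more than 3 counts in any replicate, and 0 over 4 times lower, against 7.82%. DSG1, DSC1 and SBSN passed the filter on counts through replicate 1 alone. IVL, the cornified envelope protein involucrin and the highest of them by mean, had a TPM of 202 in replicate 1 and 5.49, 4.06 and 14.9 in the others. DSG1, the desmosomal cadherin of the spinous layer, had 2107 counts in replicate 1 and 0 in replicates 2 to 4. SBSN, the lowest by mean, had 8, 1, 0 and 0 counts. KRT1 and KRT10 were thus high in the library in which IVL and DSG1 were high. This did not hold for all spinous genes, of which 5 were highest and 2 lowest in replicate 1. The share of all genes highest or lowest there was not computed, so the 5 and the 2 cannot be weighed against it. DMKN had a TPM of 27.6 in replicate 1 and 56.1, 61.7 and 37.3 in the others, and CALML3 had 0, 5, 3 and 2 counts.

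The granular genes went both ways. Of 11, 10 had more than 3 counts in any replicate, of which 2 were over 4 times higher in replicate 1 (CASP14 and SPINK5), against 2.83% of all genes, and 2 over 4 times lower (HRNR and CDSN), against 7.82%. CASP14 passed the filter on counts through replicate 1 alone. How the granular genes differ from the spinous genes was not tested. KLK5, a protease of the outer layers and the highest by mean, had a TPM of 255, 442, 257 and 294, and TGM3, the lowest, had 2, 0, 0 and 1 counts. Of 12 regulators of epidermal differentiation, 1 was over 4 times higher in replicate 1, against 2.83% of all genes. This was MAF (5.51 against at most 0.273 TPM). PRDM1 was over 4 times lower, 1 of 12, against 7.82% of all genes. CEBPB was the highest regulator by mean, at 150 ± 61.5 (SD, n = 4), and ZNF750 the lowest, at 0.380 ± 0.222 (SD, n = 4). LOR, TGM3 and FLG2, late markers of the granular layer, reached at most 0.328 TPM in any replicate. Other granular genes were higher. FLG had a TPM of 6.36, 14.3, 3.25 and 7.77 in replicates 1 to 4, and TGM1 had 96.3, 60.6, 14.8 and 27.8.

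Among the other 47 keratins, 29 had more than 3 counts in any replicate. Of these, 7 were over 4 times higher in replicate 1 (KRT13, KRT15, KRT16, KRT20, KRT33A, KRT4 and KRT84), against 2.83% of all genes. KRT81 was over 4 times lower, against 7.82%. KRT20 and KRT84 passed the filter on counts through replicate 1 alone. The calls of these keratins and of the spinous, granular and regulator lists are in TPM over protein-coding genes. Whether they hold under other scalings was not tested. In TPM over all genes, the share of genes over 4 times higher in replicate 1 fell from 2.83% to 1.06%. KRT15, a basal keratin, had a TPM of 13064 in replicate 1 against at most 1308 elsewhere, and KRT13, a mucosal one, 9870 against at most 1900. The most abundant member stood at rank 11 or 12 of the 55 keratins in each replicate, KRT10 in replicate 1 and KRT80 in the others. Markers of other cell types were read in the same libraries. The 6 fibroblast markers summed to 5.59 TPM in replicate 1 and 5.20 to 9.60 in the others, but single genes went both ways. DCN and LUM were highest in replicate 1, at 1.63 and 3.35 TPM against at most 0.618 and 1.21. COL1A1 and COL3A1 were lowest there, at 0.500 and 0.0750 TPM against at least 1.88 and 0.0822. The 3 simple epithelium markers summed to 8236 TPM in replicate 1 and 6982 to 7301 in the others, but they went apart. KRT19 had 6697 TPM in replicate 1 and 2260 to 3548 in the others, whereas KRT8 had 1095 against 2328 to 3266 and KRT18 444 against 1155 to 1456. The 4 melanocyte markers summed to 2.40 TPM against 1.36 to 3.52, with TYR at 0 in all 4 replicates. The immune markers summed to 8.31 TPM against 16.1 to 43.9, nearly all of it CD68, and PTPRC had 3 counts in replicate 1 and 0 in the others. Of the 3 endothelial markers, VWF had 507 counts in replicate 1 and at most 7 in the others, CDH5 had 0, 21, 32 and 46, and PECAM1 had 0 in all 4. The part of these cells, of depth and of the RNA classes of replicate 1 in the keratin levels was not tested.

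For each member with a mean of at least 1 TPM, the genes with the most similar profile over the 4 replicates were sought among 12164 others, by the root mean square difference of log2(TPM + 1) after centring. Nearest to KRT1 were OLFM4 (0.17), AGR2 (0.22) and HIST2H3A (0.25), each high in replicate 1 and low in the other three. Nearest to KRT10 were CSTA (0.14), which encodes cystatin A of the cornified envelope, CDKN1C (0.14) and LEMD1 (0.19). Nearest to KRT80 were ZFP36 (0.06), SEMA7A (0.07) and VARS (0.08), and nearest to KRT9 were RBM47, VSIG10L and ITGB7 (0.02 to 0.03). For KRT9, whose profile is almost flat, 1595 genes lay within 0.25, against 2 for KRT1, so its list singles out little. With 4 values per gene this likeness is a description.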

How the data were processed

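The authors deposited, for each of 4 replicates of untreated HaCaT, raw counts per gene with gene length and position. Beside the counts they deposited RPKM for replicates 1 and 2 and TPM for replicates 3 and 4, which the counts and lengths returned. The submitters' processing notes name hg19, HISAT2, TopHat2, Bowtie2 and HISAT without a role. The counting program, the annotation, strand and the selection of RNA are not given in the sources used here. TPM over protein-coding rows was computed for all 4 replicates from counts and deposited lengths. Members and lists were chosen with earlier results of these data known. The rule for named genes took all members, the highest and lowest of each list by mean TPM, pairing partners, and the 3 nearest profiles of each member with a mean of at least 1 TPM. Other list genes named, such as those over 4 times apart, and genes overlapping or next to a member were chosen after their values were seen. Counts of 3 or fewer were taken as at the limit of detection. Total counts were 17056035 to 73082279. Any pair of replicates shared its exact count at no more than 0.608% of detected genes, so all 4 were treated as distinct libraries. Poisson and Clopper-Pearson intervals are at 95%. Differences were tested by two-sided exact sign-flip permutation with Benjamini-Hochberg adjustment over 7 pairs, and the call rule was tested on simulated data. The simulated libraries differed in depth, had the gene make-up of replicates 2 to 4 and held raised genes only. They thus cover neither the different make-up of replicate 1 nor the calls of lower genes. The alternatives were other scalings, pseudocounts of 0.1 and 0.01 in place of 1, no length correction, exon unions of GENCODE release 29 as length (97.1% of protein-coding genes matched), other limits of detection, other keratin sets and leaving out each replicate. The count of members over 4 times apart in replicate 1 was repeated under other scalings, an alternative chosen after seeing the data. Calculations ran in Python 3.11.15 with SciPy 1.17.1, NumPy 2.4.6 and pandas 2.3.3, and plots in matplotlib 3.10.9.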

Additional observations from a re-analysis of the deposited data

Results flagged for a closer look

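Of 10 sets of 4 values (the TPM of each member, the members' share of keratin TPM and the KRT10 to KRT1 ratio), 5 had 1 replicate farther from the rest than the 95% limit of Dixon's test for 4 values, and in 5 of 5 it was replicate 1, as the highest. Chance gives about 1 in 20 sets if values are normally distributed, which was not checked, and the sets share libraries. The share of all protein-coding genes that pass this limit was not computed, so 5 of 10 is a description. The flagged sets were KRT1 at a TPM of 124 (gap 0.997 of the range), KRT10 at 229 (0.894) and KRT77 at 3.90 (0.991). KRT23 at 2.07 (0.869) and KRT2 at 0.153 (1.00) were flagged too. With 0 in the other three, the gap of KRT2 fills the range whatever its value, and it rests on 9 counts, so this one says nothing of a difference. In TPM over all genes, KRT10 (0.583) and KRT23 (0.609) did not pass this limit, while KRT1, KRT77 and KRT2 did. KRT80, lowest in replicate 1 at 17.8, had a gap of 0.626 of its range and did not pass, since replicates 2 to 4 also differed among themselves.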

How the results depend on the processing

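Of 141 values under alternatives over 20 results, 5 reversed, 3 moved further and 133 were taken as the same. The last kept their direction and side of the threshold or stayed within 1 SD, save for counts of members, which have no SD. Members detected went from 4 to 6 at a limit of 0.1 TPM, and members over 4 times higher in replicate 1 from 4 to 3 with size factors. Both changes are among the 133. For KRT1, KRT10, KRT77 and KRT23 the SD is set by replicate 1, so that staying within 1 SD without it says nothing of stability. KRT80 minus KRT10 on the log2 scale ranged from -0.41 to 1.55 when each replicate was left out, negative without replicate 2 or replicate 4 (-0.12). KRT77 minus KRT23 was -0.48 with a pseudocount of 0.1 and -1.79 with 0.01, and ranged from -0.16 (without replicate 1) to 0.19 when each replicate was left out; both genes are at 0 to 5 counts outside replicate 1. The mean of KRT9 was 5.81 in the values as deposited, which mix RPKM and TPM. The members' mean share of keratin read counts, without gene length, was 1.25% against 0.733% of TPM, and it was lowest in replicate 1. Without replicate 1 the mean TPM was 0.398 for KRT1, 43.7 for KRT10, 0.0112 for KRT77 and 0.137 for KRT23, and the number of members detected was 3 to 5 over the replicates left out. The count of members over 4 times higher in replicate 1 was 2 in TPM over all genes, which lowers replicate 1, against 1.06% of genes. It was 4 without replicate 2, 3 or 4, against 3.52%, 2.98% and 3.96% of genes. No paired analysis was possible because there is 1 group, so a replicate block across groups could not be fitted, and members were compared within each replicate instead. Depth limits KRT2, KRT78, KRT77 and KRT23, whose counts in replicates 2 to 4 were 5 or fewer.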
